A study of Homo sapiens with 12 samples.

Results

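A2M, the gene of the broad protease inhibitor alpha-2-macroglobulin, and 8 genes of the complement system were followed in WI-38 cells, a line of normal human lung fibroblasts, cultured with or without transforming growth factor β (TGF-β). The 9 genes, of 25702 in the deposited count table, were A2M, C1R, C1S, C3, CFD, CD46, CD55, CD59 and SERPING1, found by their gene symbols. A2M was taken as chosen for its low level in the TGF-β treated cells of day 20. Its values in every comparison that uses day 20 libraries are thus given as a description with no test. Which values, if any, chose the other 8 genes is not stated. RNA was taken on day 1 from untreated cells (D1) and cells given TGF-β (D1+ TGF-β), at passages 2 to 3, and on day 20 from untreated cells (D20) and cells kept in TGF-β (D20+ TGF-β), at passages 5 to 6. Each condition had 3 flasks, sequenced as 3 libraries. All conditions shared the same unmodified cell line, grown in medium with foetal bovine serum. By the methods of the study, all later flasks of a treatment were seeded from the same parent flask. The p-values given here thus measure the spread between flasks of a shared culture, and the length of culture, the passage number and the parent flask cannot be told apart. In D20+ TGF-β vs D20, the treatment and the parent flask cannot be told apart either.

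Complement is a cascade of plasma and tissue proteins that tags and lyses targets. In its classical pathway, C1q recruits the serine proteases C1r and C1s, which cleave C4 and C2, and all pathways meet at the cleavage of C3. The alternative pathway amplifies C3 cleavage through factor B and factor D, the latter encoded by CFD. Host cells are guarded by a soluble inhibitor of C1r and C1s, encoded by SERPING1, and by the membrane proteins CD46, CD55 and CD59. A2M and C3 belong to the same thioester protein family. The liver makes most of these proteins in plasma, and fibroblasts are among the cells that make C1r, C1s and the C1 inhibitor locally.

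Library totals ranged from 8674488 to 18286197 counts. Levels are given as cpm, the counts of a gene scaled to a common library total with TMM factors. The 8 fibroblast markers summed to 13415 to 22769 cpm over all libraries, whereas 6 hepatocyte markers summed to at most 0.261 cpm. The 6 macrophage and leukocyte markers summed to 50.4 to 61.9 cpm in D1, 39.7 to 41.1 in D1+ TGF-β, 52.8 to 59.1 in D20 and 38.2 to 47.6 in D20+ TGF-β. Most of this was CD68, a lysosomal protein gene at 37.5 to 61.5 cpm, which was lower in D1+ TGF-β vs D1 (log2 fold change −0.49, edgeR adjusted p = 0.00252). LYZ and TYROBP had 0 counts, PTPRC at most 0.191 cpm and CSF1R at most 0.557 cpm, while CD14 stood at 5.34 to 6.19 cpm in D20 and at most 0.522 cpm elsewhere. The 5 epithelial markers summed to 38.5 to 59.9 cpm in D1, 57.4 to 59.3 in D1+ TGF-β, 61.1 to 63.2 in D20 and 36.5 to 49.5 in D20+ TGF-β. This was keratin RNA (KRT8, KRT18 and KRT19), with CDH1 at most 0.282 cpm and EPCAM at most 0.522 cpm. These marker genes were named after their values were seen. The part of other cell types in the results was not tested. As a check of the treatment, 5 TGF-β response genes were followed, of which 4 were called higher at D1 and 2 at D20. At D20 these were FN1, the fibronectin gene, and COL1A1, a collagen gene, with log2 fold changes of 1.95 and 0.99, after 1.34 and 1.09 at D1. ACTA2, the smooth muscle actin gene, had 2.07 at D1 and 0.13 at D20, TAGLN 0.87 and 0.06, and CCN2, not called in either, 0.77 and −0.70. Flask 3 of D20+ TGF-β and flask 2 of D1 stood apart, with 116 and 110 of 9490 genes more than 2-fold away from the other flasks of their condition, against at most 17 for any other library. The summed cpm of 8 proliferation genes was 794 to 1164 in D1, 834 to 909 in D1+ TGF-β, 169 to 198 in D20 and 327 to 509 in D20+ TGF-β, with the highest of these last in flask 3. It moved with the conditions, and its part in the results was not tested. In bulk RNA, fewer cells with a transcript and less transcript per cell cannot be told apart.

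**Figure D1:**
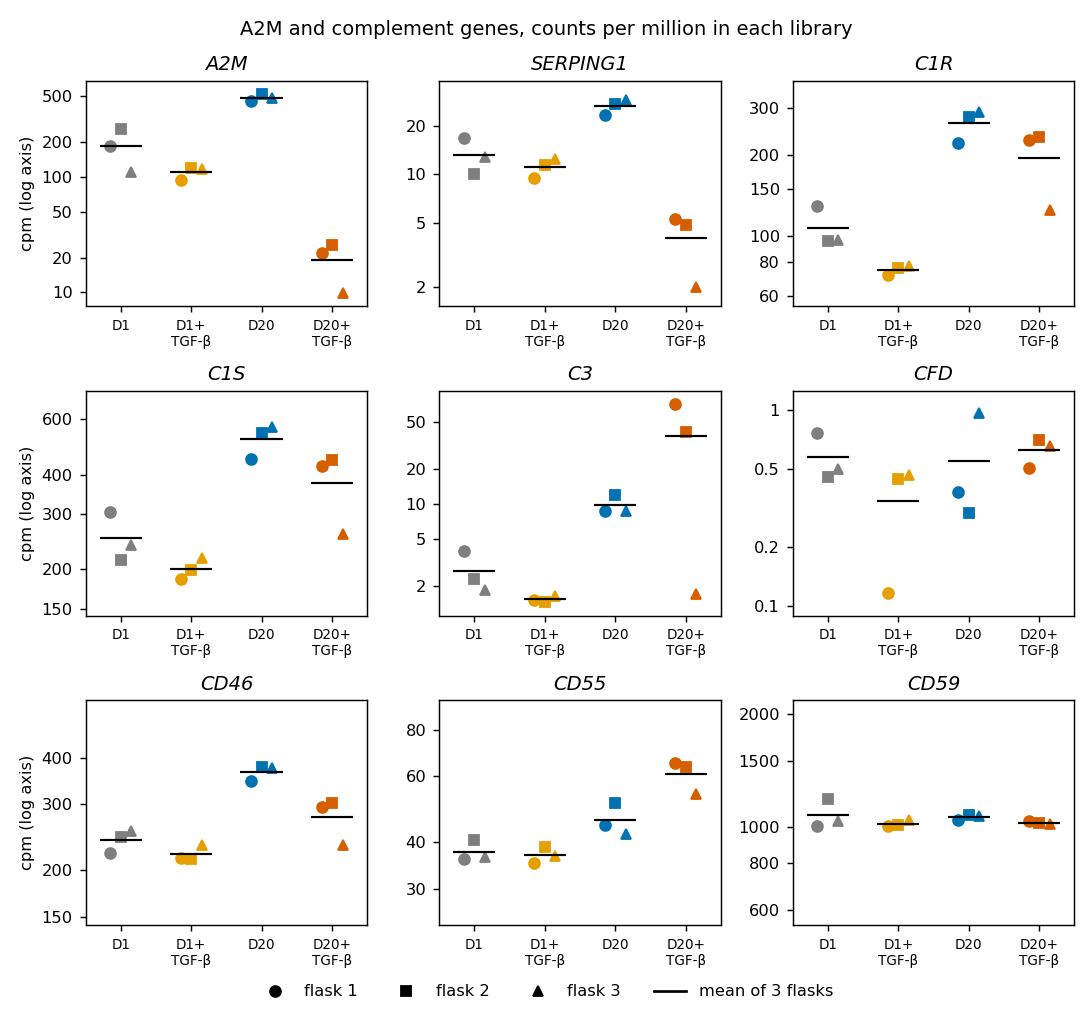
Level of each of the 9 genes in the 12 libraries, in cpm on a log axis with its own range for each gene. Points are flasks and lines are means of 3 flasks. A2M runs from 9.96 cpm in a D20+ TGF-β flask to 515 cpm in a D20 flask, while CD59 stays near 1000 cpm in every library.

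Of the 9 genes, 7 reached 10 cpm in at least 6 libraries and were tested with edgeR's quasi-likelihood test among 9490 genes, with a change called at a Benjamini-Hochberg adjusted p under 0.01. C3 and CFD did not reach that level. With A2M left out, 6 genes were counted. In D1+ TGF-β vs D1, the comparison of short treatment, 0 of 6 were called, against 13.4% of all genes tested. At an unadjusted edgeR p under 0.05, 1 of the 6 (C1R) passed, against 36.9% of all genes tested. DESeq2 and limma-voom called 0 of the 6, and their shares over all genes are not given here. In D20+ TGF-β vs D20, the comparison of long treatment, 3 of 6 were called, with CD55 higher and SERPING1 and CD46 lower, against 27.5% of all genes. In D20 vs D1, the comparison of long culture without treatment, 4 of 6 were called, all higher, against 36.4% in either direction and 18.9% higher. These were C1R, C1S, CD46 and SERPING1. In D20+ TGF-β against D1+ TGF-β, 4 of 6 were called, with C1R, C1S and CD55 higher and SERPING1 lower, against 34.8%. The median log2 fold change of the 6 genes was −0.17, −0.41, 0.82 and 0.52 in the 4 comparisons, beside −0.02, 0.01, 0.01 and 0.01 over all genes tested. By flasks alone, the conditions did not overlap for 1 of the 6 genes in D1+ TGF-β vs D1 and for 5 of 6 in each of the other 3 comparisons, against 36.4%, 58.3%, 55.6% and 63.2% of all genes. With so few genes, none of these shares is a result about complement genes as a group.

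**Figure D2:**
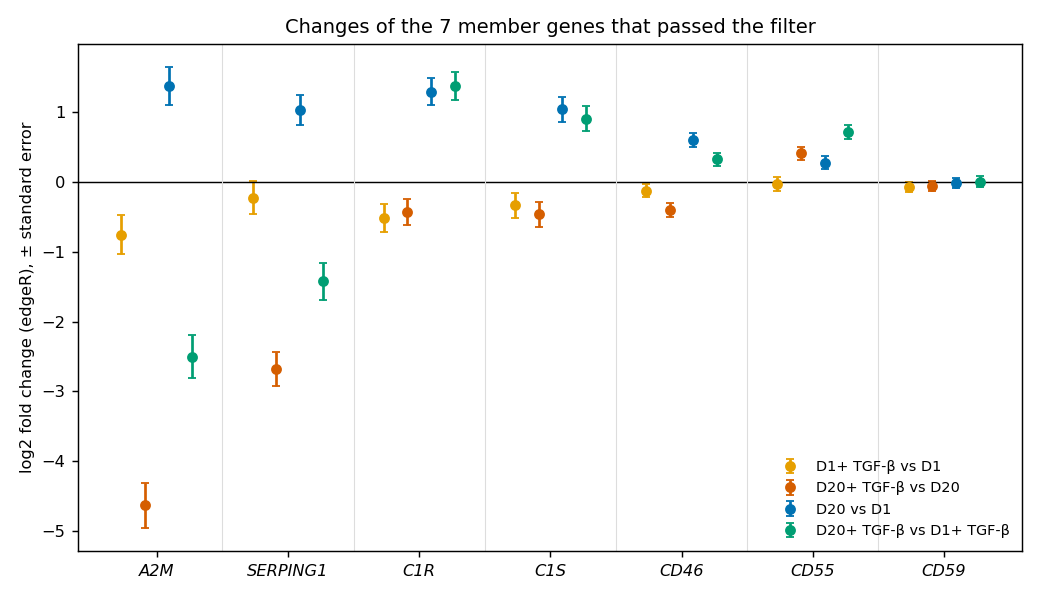
Log2 fold change of each of the 7 genes that reached the level for testing, in the 4 comparisons. Bars are standard errors from edgeR. The lowest point is A2M in D20+ TGF-β vs D20 at −4.63, followed by SERPING1 at −2.68, and all CD59 points lie near 0.

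A2M (Entrez 2) lies on chromosome 12 at 9220260 to 9268825 of GRCh37, on the minus strand. It encodes a large secreted protein that traps proteases of many kinds and also binds growth factors, TGF-β among them. Its level was 184, 259 and 110 cpm in D1 and 94.3, 118 and 116 cpm in D1+ TGF-β. It was 448, 515 and 476 cpm in D20 and 21.9, 25.8 and 9.96 cpm in D20+ TGF-β. Every D20 flask was above every other library, every D20+ TGF-β flask was below every other library, and the flasks of D1 and D1+ TGF-β overlapped.

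The mean A2M level was 480 ± 33.5 cpm in D20, 184 ± 74.7 in D1, 109 ± 13.0 in D1+ TGF-β and 19.2 ± 8.26 in D20+ TGF-β (SD, n = 3). D20 was thus 2.60-fold above D1 (log2 fold change 1.38, SE 0.27), and D20+ TGF-β was 24.8-fold below D20 (−4.63, SE 0.33) and 5.67-fold below D1+ TGF-β (−2.50, SE 0.31). Without flask 3 of D20+ TGF-β these last A2M values were −4.34 and −2.21. The only A2M comparison tested was D1+ TGF-β vs D1, with a log2 fold change of −0.75 (SE 0.28, edgeR adjusted p = 0.0629), which did not pass. Without flask 3 of D1, the lowest of its condition, it was −1.02 (adjusted p = 0.00967), and without flask 2, the highest, −0.42 (adjusted p = 0.202), so that single D1 flasks decide this call. A2M-AS1 is annotated on the opposite strand. It had 1 to 15 counts a library, where A2M had 106 to 7914.

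SERPING1 (Entrez 710, GRCh37 chromosome 11, 57364860 to 57386644, plus strand) encodes the C1 inhibitor, the serpin that inactivates C1r and C1s and the kinin-forming proteases. Its level was 16.7, 9.99 and 12.7 cpm in D1 and 9.52, 11.5 and 12.5 cpm in D1+ TGF-β. It was 23.4, 27.4 and 29.1 cpm in D20 and 5.28, 4.85 and 1.97 cpm in D20+ TGF-β. The highest and the lowest libraries were again those of D20 and D20+ TGF-β, with no overlap with any other condition, and the day 1 conditions overlapped. No D20+ TGF-β flask reached 10 cpm, so SERPING1 entered the test through flasks of the conditions where it was higher. Its calls against D20+ TGF-β are thus not support for a change of the 6 genes as a group.

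SERPING1 was 6.41-fold lower in D20+ TGF-β vs D20 (log2 fold change −2.68, SE 0.25, adjusted p = 2.4e-06), from 26.6 ± 2.90 to 4.03 ± 1.80 cpm (SD, n = 3). It was 2.05-fold higher in D20 vs D1 (1.04, SE 0.21, adjusted p = 0.00122) and 2.68-fold lower in D20+ TGF-β against D1+ TGF-β (−1.42, SE 0.27, adjusted p = 0.000698). In D1+ TGF-β vs D1 the log2 fold change of SERPING1 was −0.22 (SE 0.23, adjusted p = 0.526). The difference between the TGF-β responses of day 20 and day 1 was itself tested and was −2.46 on the log2 scale (SE 0.34, adjusted p = 0.000319). It was 1 of the 6 genes called in this test, against 10.4% of all genes. Without flask 3 of D20+ TGF-β, the SERPING1 values were −2.39 against D20 (adjusted p = 8.78e-07), −1.13 against D1+ TGF-β (adjusted p = 0.000699) and −2.17 for the difference (adjusted p = 8.47e-05). The rise from D1 to D20 had an adjusted p of 0.0101 with limma on the deposited log2 values, just outside the threshold.

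**Figure D3:**
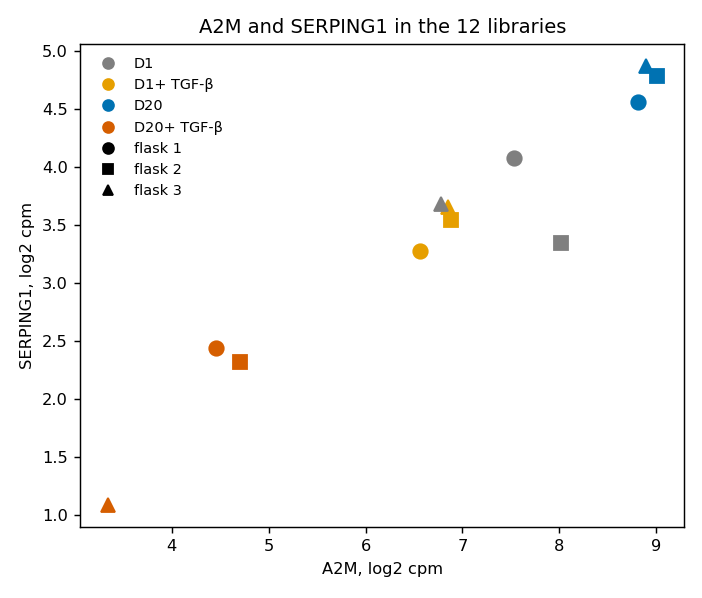
Log2 cpm of A2M against log2 cpm of SERPING1 in the 12 libraries, coloured by condition and marked by flask. The D20 flasks lie at the top right and the D20+ TGF-β flasks at the bottom left, with flask 3 of D20+ TGF-β lowest on both axes.

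The levels of A2M and SERPING1 ran together over the libraries. Pearson's r of their log2 cpm was 0.958 over 12 libraries, which placed SERPING1 at rank 9 of the 9489 other genes tested by likeness to A2M. The 5 genes most like A2M were KCTD20 (r = 0.971), VCL (0.969), CYB5R1 (0.968), THY1 (0.965) and PVR (0.962). THY1, a fibroblast surface glycoprotein, had mean levels of 503, 436, 677 and 295 cpm in D1, in D1+ TGF-β, in D20 and in D20+ TGF-β. VCL, which encodes the adhesion protein vinculin, had 793, 812, 934 and 578 cpm. Both were highest in D20 and lowest in D20+ TGF-β, as A2M was, while the day 1 means of VCL were in the opposite order to those of A2M. The 12 points fall into 4 conditions and share their libraries, so these values describe a pattern and carry no p.

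C1R and C1S encode the paired serine proteases of the C1 complex. They are neighbours on chromosome 12 of GRCh37, C1R (Entrez 715) at 7187513 to 7245203 on the minus strand and C1S (Entrez 716) at 7096351 to 7178336 on the plus strand. C1R stood at 129, 95.8 and 96.6 cpm in D1 and at 71.7, 76.0 and 77.5 cpm in D1+ TGF-β. It stood at 223, 278 and 289 cpm in D20 and at 228, 233 and 125 cpm in D20+ TGF-β. Both day 20 conditions lay above their day 1 counterparts without overlap, and flask 3 of D20+ TGF-β was well below its 2 companions.

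C1R was 2.46-fold higher in D20 vs D1 (log2 fold change 1.30, SE 0.19, adjusted p = 0.000103) and 2.60-fold higher in D20+ TGF-β against D1+ TGF-β (1.38, SE 0.20, adjusted p = 9.36e-05). Neither TGF-β comparison passed for C1R. Its log2 fold change was −0.51 in D1+ TGF-β vs D1 (SE 0.20, adjusted p = 0.0763), where all 3 treated flasks lay below all 3 untreated flasks, as for 18.8% of all genes tested. It was −0.43 in D20+ TGF-β vs D20 (SE 0.19, adjusted p = 0.0873). Without flask 3 of D20+ TGF-β, the day 1 value of C1R passed (−0.51, adjusted p = 0.00602), although that library is not in the comparison, because all conditions share a single estimate of the spread. The day 20 value was then −0.19 (adjusted p = 0.26) and the D20+ TGF-β against D1+ TGF-β value was 1.62 (adjusted p = 4.9e-07). The annotation holds C1R in pieces and places C1RL, a related gene, over it on the same strand, so counts of C1R and C1RL may have been shared.

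C1S stood at 305, 214 and 238 cpm in D1 and at 186, 198 and 218 cpm in D1+ TGF-β. It stood at 448, 543 and 568 cpm in D20 and at 427, 447 and 259 cpm in D20+ TGF-β. C1S was 2.06-fold higher in D20 vs D1 (log2 fold change 1.04, SE 0.18, adjusted p = 0.000326) and 1.88-fold higher in D20+ TGF-β against D1+ TGF-β (0.91, SE 0.18, adjusted p = 0.00104). The TGF-β comparisons of C1S gave −0.33 at D1 (SE 0.18, adjusted p = 0.204) and −0.46 at D20 (SE 0.18, adjusted p = 0.0537), and without flask 3 of D20+ TGF-β the latter was −0.25 (adjusted p = 0.162). C1S was thus higher at day 20 than at day 1 whether or not TGF-β was present, as was C1R. The difference between the TGF-β responses of day 20 and day 1 was 0.08 for C1R (SE 0.27, 95% interval −0.51 to 0.67, adjusted p = 0.867) and −0.13 for C1S (SE 0.25, 95% interval −0.68 to 0.42, adjusted p = 0.756). Over the 12 libraries, r of the log2 cpm of C1R and C1S was 0.991, and C1S ranked 2 of 9489 by likeness to C1R.

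C3 (Entrez 718, GRCh37 chromosome 19, 6677715 to 6730573, minus strand) encodes the central component of the cascade. Its level was 3.97, 2.28 and 1.84 cpm in D1 and 1.51, 1.45 and 1.63 cpm in D1+ TGF-β. It was 8.77, 11.9 and 8.66 cpm in D20. In D20+ TGF-β the 3 flasks held 1274, 410 and 18 counts of C3, or 71.6, 41.4 and 1.69 cpm. The 95% Poisson intervals of these counts, which cover counting error only, were 1205 to 1346, 371 to 452 and 10.7 to 28.4, so the flasks of this condition differed far beyond counting error. Flask 3 was at 0.0299 of the mean of the other 2, and the split was the same in each of the 4 lanes, with 305 to 329, 91 to 109 and 3 to 7 counts.

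Every D20 flask had more C3 than every D1 flask, as was so for 17.9% of the genes with counts that did not reach the level for testing. In the edgeR fit without a gene filter, the log2 fold change of C3 was 1.79 in D20 vs D1 (SE 0.63, adjusted p = 0.0318), 2.01 in D20+ TGF-β vs D20 (SE 0.49, adjusted p = 0.00287) and 4.63 in D20+ TGF-β against D1+ TGF-β (SE 0.66, adjusted p = 3.89e-06). In that fit, 22%, 17.1% and 21.2% of 20434 genes were called in these comparisons. At day 1, the log2 fold change of C3 with TGF-β was −0.83 (SE 0.86, adjusted p = 0.609). The difference between the TGF-β responses of day 20 and day 1 was 2.84 (SE 0.99, adjusted p = 0.0638). The call in D20+ TGF-β vs D20 rests on overlapping flasks, of which 2 lay above and 1 below all D20 flasks. Without flask 1 of D20+ TGF-β it was 1.14 (adjusted p = 0.0758), and without flask 3 it was 2.56 (adjusted p = 2.45e-23). The value in D20+ TGF-β against D1+ TGF-β ran from 3.76 without flask 1 of D20+ TGF-β to 5.18 without flask 3, and passed each time a library was left out. Flask 3, at 1.69 cpm (95% Poisson interval 1.00 to 2.67), lay within counting error of the D1+ TGF-β flasks. The difference of the responses ran from 1.97 without flask 1 (adjusted p = 0.139) to 3.38 without flask 3 (adjusted p = 7.7e-14), the only left-out library with which it passed. The value of D20 vs D1 passed without flask 3 (1.79, adjusted p = 4.36e-12) or flask 1 (adjusted p = 0.00591) of D20+ TGF-β, neither of which is in that comparison, for the same reason as with C1R. The mean of this condition, 38.2 ± 35.0 cpm (SD, n = 3), describes none of its flasks.

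CFD (Entrez 1675, GRCh37 chromosome 19, 859453 to 867884, plus strand) encodes factor D, the protease that starts the alternative pathway by cutting factor B. It had 1 to 16 counts a library, or 0.116 to 0.962 cpm, with the lowest value in D1+ TGF-β and the highest in D20. In the fit without a gene filter, its log2 fold changes were −0.63 in D1+ TGF-β vs D1 (adjusted p = 0.578), 0.08 in D20+ TGF-β vs D20 (0.976), −0.04 in D20 vs D1 (1.00) and 0.67 in D20+ TGF-β against D1+ TGF-β (0.432). No comparison passed. The 3 D20+ TGF-β flasks, at 0.506 to 0.707 cpm, lay above the 3 D1+ TGF-β flasks, at 0.116 to 0.466 cpm. This was so for 16.3% of the genes with counts that did not reach the level for testing. The CFD counts behind it were only 9, 7 and 7 against 1, 8 and 4. In the other 3 comparisons the flasks overlapped.

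**Figure D4:**
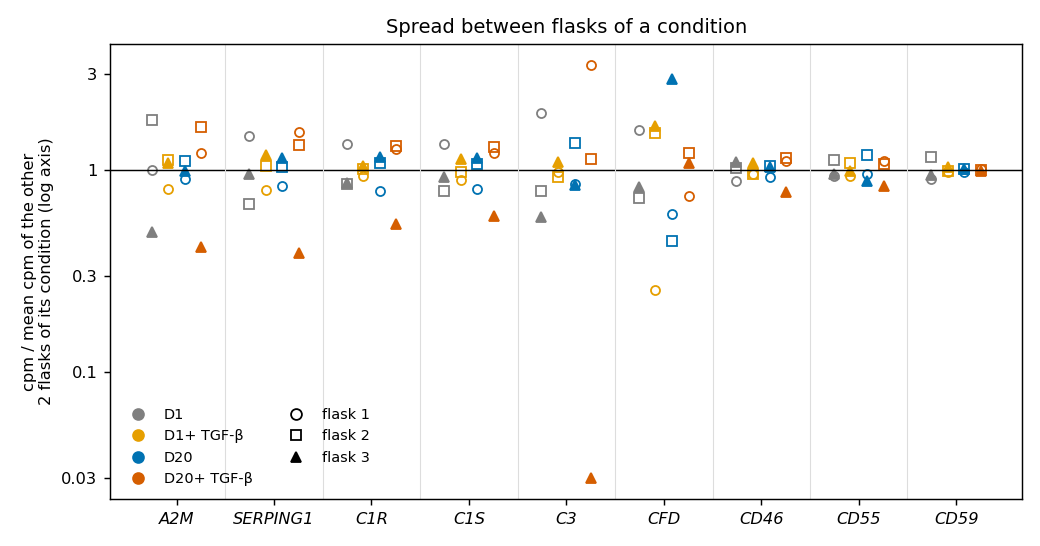
Level of each flask divided by the mean of the other 2 flasks of its condition, on a log axis, for the 9 genes. The lowest point is C3 in flask 3 of D20+ TGF-β at 0.0299, and the same flask is low for A2M, SERPING1, C1R and C1S.

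Flask 3 of D20+ TGF-β was low for more than C3. Its ratio to the mean of the other 2 flasks was 0.418 for A2M, 0.390 for SERPING1, 0.542 for C1R and 0.593 for C1S. It was 0.781 for CD46, 0.835 for CD55, 0.987 for CD59 and 1.09 for CFD. In D20 the ratios of the 7 tested genes lay between 0.785 and 1.18, and in D1+ TGF-β between 0.796 and 1.19. In D1, flask 3 was at 0.495 of the other flasks for A2M, and flask 2 at 1.76.

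The membrane regulators protect the cells that carry them. CD46 binds deposited C3b and C4b as a cofactor for their cleavage, CD55 speeds the decay of C3 convertases, and CD59 blocks the membrane attack complex. On GRCh37, CD46 (Entrez 4179) lies on chromosome 1 at 207925382 to 207968858 and CD55 (Entrez 1604) at 207494864 to 207560149, both on the plus strand, and CD59 (Entrez 966) lies on chromosome 11 at 33724556 to 33758025, on the minus strand. The 250 bases before a RefSeq start (GRCh38.p14) are shown for CD46, which changed over the conditions, and for CD59, which had the steadiest level, 5′ to 3′ on the gene's strand. Capitals mark matches to any of the motifs searched. CD46 is from chr1:207751788-207752037 on the plus strand, and CD59 from chr11:33736480-33736729 on the minus strand.
CD46: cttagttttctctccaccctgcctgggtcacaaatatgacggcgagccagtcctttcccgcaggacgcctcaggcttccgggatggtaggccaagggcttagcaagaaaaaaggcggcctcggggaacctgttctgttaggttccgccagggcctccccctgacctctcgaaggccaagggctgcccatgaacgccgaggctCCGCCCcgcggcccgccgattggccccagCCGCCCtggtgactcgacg
CD59: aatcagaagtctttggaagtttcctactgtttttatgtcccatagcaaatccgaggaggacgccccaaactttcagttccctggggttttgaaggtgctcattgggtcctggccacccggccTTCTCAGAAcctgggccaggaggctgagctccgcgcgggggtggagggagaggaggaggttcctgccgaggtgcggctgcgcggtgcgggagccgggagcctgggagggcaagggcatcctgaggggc

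The motifs searched on both strands were the STAT motif TTCNNNGAA, the AP-1 motif TGANTCA, the GC box GGGCGG, the TATA motif TATAAA and the SMAD motif CAGACA. The capitals in CD46 are 2 GC boxes on the other strand, whose first bases lie at −48 and −19 from the start, and those in CD59 are a STAT motif at −128 to −120. Only start 1 of each gene is shown, while CD46 also has a start 2 and CD59 has starts 2 to 4. CD59 start 2 held GC boxes as well, with first bases at −60 and −47, and CD59 start 4 held AP-1 motifs from −117 and −23. The 2 windows shown are thus no contrast between the genes. Of 35116 promoters of this length, 42.6% held a GC box and 6.57% a STAT motif, with 6.57% for AP-1, 10.7% for TATA and 13.6% for SMAD. A match is a description of the letters in this window and no evidence of binding. Of the 9 genes, 5 had an entry in the promoter table, and those of A2M, C1S, C3 and SERPING1 had none.

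CD46 stood at 222, 246 and 256 cpm in D1 and at 215, 215 and 234 cpm in D1+ TGF-β. It stood at 346, 378 and 375 cpm in D20 and at 296, 303 and 234 cpm in D20+ TGF-β. The D20 flasks were above all other libraries. CD46 was 1.52-fold higher in D20 vs D1 (log2 fold change 0.60, SE 0.10, adjusted p = 0.000157) and 1.32-fold lower in D20+ TGF-β vs D20 (−0.40, SE 0.10, adjusted p = 0.00445). Without flask 3 of D20+ TGF-β the latter was −0.29 (adjusted p = 0.0121) and no longer called, and it also missed the threshold without flask 2 (adjusted p = 0.0208) or flask 3 (adjusted p = 0.0199) of D20 and with the fit on only the libraries compared (adjusted p = 0.0124). In D20+ TGF-β against D1+ TGF-β the log2 fold change of CD46 was 0.33 (SE 0.10, adjusted p = 0.0117), which passed without flask 3 of D20+ TGF-β (0.44, adjusted p = 0.000512). It also passed without flask 1 (adjusted p = 0.00971) or flask 2 (adjusted p = 0.00748) of D1. In D1+ TGF-β vs D1 it was −0.12 (SE 0.10, adjusted p = 0.373), and the difference of the responses was −0.28 (SE 0.13, adjusted p = 0.166).

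CD55 stood at 36.1, 40.4 and 36.4 cpm in D1 and at 35.2, 38.8 and 36.7 cpm in D1+ TGF-β. It stood at 44.3, 51.0 and 42.0 cpm in D20 and at 65.2, 63.6 and 53.7 cpm in D20+ TGF-β, so that every D20+ TGF-β flask was above every other library. The order of its conditions thus differed from that of CD46 and SERPING1, which were highest in D20. CD55 was 1.33-fold higher in D20+ TGF-β vs D20 (log2 fold change 0.41, SE 0.09, adjusted p = 0.00334) and 1.65-fold higher in D20+ TGF-β against D1+ TGF-β (0.72, SE 0.10, adjusted p = 5.56e-05). The first of these calls missed the threshold without flask 1 (adjusted p = 0.016) or flask 3 (adjusted p = 0.0232) of D20 and without flask 1 (adjusted p = 0.014) or flask 2 (adjusted p = 0.0148) of D20+ TGF-β, and without flask 3 of D20+ TGF-β it was 0.49 (adjusted p = 0.000889). In D20 vs D1 CD55 had a log2 fold change of 0.28 (SE 0.10, adjusted p = 0.0254) and in D1+ TGF-β vs D1 of −0.03 (SE 0.10, adjusted p = 0.878), neither called. The difference of the responses was 0.44 (SE 0.14, adjusted p = 0.035), also not called.

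CD59 stood at 1003, 1186 and 1037 cpm in D1 and at 1005, 1014 and 1043 cpm in D1+ TGF-β. It stood at 1046, 1076 and 1073 cpm in D20 and at 1038, 1025 and 1018 cpm in D20+ TGF-β. No comparison passed, and the log2 fold changes lay between −0.08 and 0.01 with adjusted p between 0.485 and 0.926. The 95% intervals were −0.23 to 0.08 in D1+ TGF-β vs D1, −0.21 to 0.10 in D20+ TGF-β vs D20, −0.17 to 0.14 in D20 vs D1 and −0.15 to 0.17 in D20+ TGF-β against D1+ TGF-β. Changes of CD59 beyond these bounds lay outside the intervals.

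Levels of different genes were compared per kilobase of the annotated canonical transcript, for the 8 genes other than C1R, whose transcript the annotation holds in pieces. In D1, CD59 had 142 ± 12.9 cpm per kilobase, C1S 94.0 ± 17.6, CD46 72.6 ± 5.18, A2M 40.0 ± 16.2, CD55 14.5 ± 0.936, SERPING1 7.18 ± 1.85, C3 0.516 ± 0.215 and CFD 0.481 ± 0.137 (SD, n = 3). In D20, C1S was first at 194 ± 23.7 cpm per kilobase, CD59 had 141 ± 2.19, CD46 110 ± 5.23 and A2M 104 ± 7.26. In D20+ TGF-β, A2M was at 4.17 ± 1.79 cpm per kilobase, between C3 at 7.31 ± 6.70 and SERPING1 at 2.20 ± 0.982. The flasks of C3 and CFD overlapped in D1, as did those of CD46 and A2M in D20, and those of A2M with both C3 and SERPING1 in D20+ TGF-β.

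**Figure D5:**
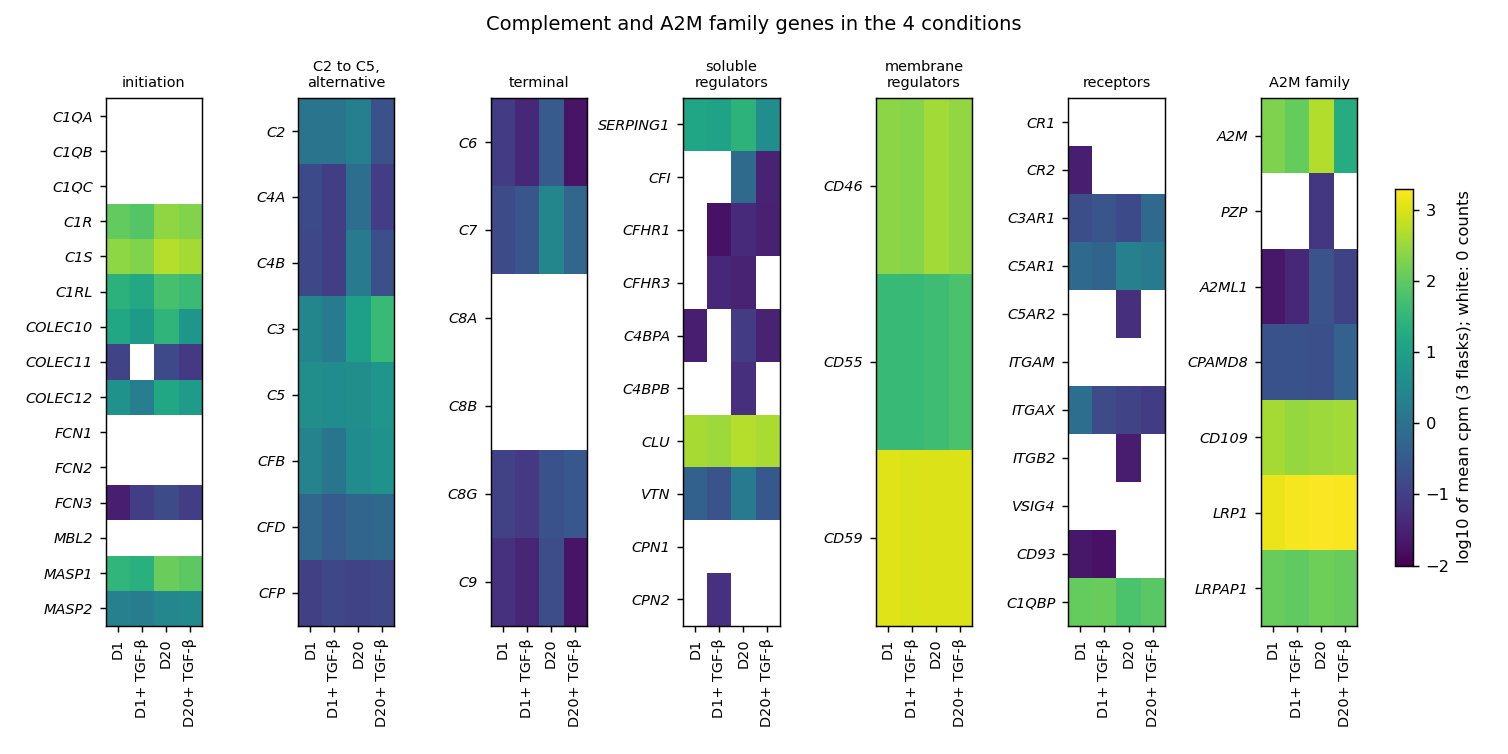
Mean level of the 9 genes and 51 other genes of the complement system and the A2M family in the 4 conditions, as log10 of the mean cpm of 3 flasks, grouped by role. White cells are 0 counts in all 3 flasks. The C1q chains, C8A, C8B, MBL2, FCN1 and FCN2 are white throughout, while C1R, C1S, CLU, CD46, CD59, CD109 and LRP1 are among the brightest.

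Of 51 other genes of the complement system and the A2M family, 12 had 0 counts in every library, which allows up to 3 counts a library, or at most 0.346 cpm. They were C1QA, C1QB and C1QC, the chains of the C1q subunit that carries C1r and C1s, the lectin MBL2, the ficolins FCN1 and FCN2, the terminal components C8A and C8B, CPN1, and the receptors CR1, ITGAM and VSIG4. Another 8 of the 51 reached the level for testing. They were C1RL, COLEC10, MASP1, CLU, C1QBP, CD109, LRP1 and LRPAP1. In D1+ TGF-β vs D1, 2 of 8 were called, both lower, against 13.4% of all genes tested. In D20+ TGF-β vs D20, 3 of 8 were called, 2 lower and 1 higher, against 27.5%. In D20 vs D1, 4 were called, 3 higher and 1 lower, against 36.4%. In D20+ TGF-β against D1+ TGF-β, 3 were called, 2 higher and 1 lower, against 34.8%. With 8 genes, nothing about the list is read from these shares. For the difference of responses, edgeR called 0 of the 8, against 10.4% of all genes tested. At an unadjusted edgeR p under 0.05, 3 of the 8 passed, against 34.4% of all genes tested. DESeq2 called 1 and limma-voom 0, and their shares over all genes are not given here. Nothing about the list is read from these counts either. LRP1, the receptor that clears complexes of A2M with proteases, stood at 1119 to 1952 cpm and was not called in any comparison.

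COLEC10, a collectin of the lectin pathway, was the gene of these 8 with the largest TGF-β response. Its level was 14.7, 15.8 and 12.0 cpm in D1, 7.43, 6.52 and 8.85 cpm in D1+ TGF-β, 29.1, 27.2 and 30.2 cpm in D20 and 8.20, 7.77 and 3.48 cpm in D20+ TGF-β. Treated flasks lay below untreated flasks on both days. Only the 6 untreated libraries reached 10 cpm, the number needed for testing, so COLEC10 entered the test through the conditions where it was high, and its calls are not support for a change of the list. The log2 fold change of COLEC10 was −0.93 in D1+ TGF-β vs D1 (SE 0.22, adjusted p = 0.00728) and −2.12 in D20+ TGF-β vs D20 (SE 0.21, adjusted p = 4.21e-06), and the difference between them was −1.19 (SE 0.30, adjusted p = 0.014), which was not called. In the fit without a gene filter these COLEC10 values were −0.94 (adjusted p = 0.000673), −2.11 (adjusted p = 6.92e-10) and −1.16 (adjusted p = 0.00298), all called. Whether the difference was called thus depended on the gene filter. That fit called 17.1% of 20434 genes in D20+ TGF-β vs D20, and its other shares are not given here.

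C1RL, a C1r-like protease, had a mean of 26.0 ± 1.72 cpm in D1, 15.9 ± 0.973 in D1+ TGF-β, 56.1 ± 2.18 in D20 and 41.9 ± 6.98 in D20+ TGF-β (SD, n = 3). Its log2 fold change was −0.72 in D1+ TGF-β vs D1 (SE 0.12, adjusted p = 0.000686) and −0.42 in D20+ TGF-β vs D20 (SE 0.11, adjusted p = 0.00627). C1QBP, a mainly mitochondrial protein that can bind C1q, had 64.1 ± 1.65 cpm in D20 and 87.9 ± 9.34 cpm in D20+ TGF-β, a log2 fold change of 0.45 (SE 0.10, adjusted p = 0.00196). It was the called gene of this list that was higher in D20+ TGF-β vs D20. Its mean was 114 ± 15.4 cpm in D1 and 117 ± 1.10 cpm in D1+ TGF-β. C1QBP was called lower in D20 vs D1 (log2 fold change −0.83) and in D20+ TGF-β against D1+ TGF-β (−0.41). C1RL was also 2.15-fold higher in D20 vs D1 and 2.65-fold higher in D20+ TGF-β against D1+ TGF-β (adjusted p = 2.58e-06 and 1.96e-06). MASP1, a protease of the lectin pathway, was not called in either TGF-β comparison but was higher in D20 vs D1 (log2 fold change 2.00, adjusted p = 3.11e-06) and 4.08-fold higher in D20+ TGF-β against D1+ TGF-β (2.03, adjusted p = 8.18e-06).

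The remaining 31 of the 51 genes had counts but did not reach the level for testing, and were compared by whether the flasks overlapped. In D20+ TGF-β vs D20, 9 of 31 had all treated flasks below all untreated flasks, against 12.4% of the 10944 genes with counts that did not reach that level, and 2 had all treated flasks above, against 11.2%. The 9 were COLEC12, C2, C4A, C4B, C6, C7, C9, CFI and VTN, and the 2 were C5 and C3AR1. In D20 vs D1, 10 of 31 had all D20 flasks above all D1 flasks, against 17.9%, and 1 below, against 7.39%. Most of these counts are small, and nothing about the list is read from these shares. C9 had 8 counts over the 3 D20 flasks and 1 over the 3 D20+ TGF-β flasks. CFI, the protease that cuts C3b, had 7, 8 and 13 counts in D20, 0, 1 and 0 in D20+ TGF-β and 0 in every day 1 library. C2 had 17, 22 and 42 counts in D20 and 6, 2 and 1 in D20+ TGF-β. C4A and C4B are nearly identical and share reads, so their separate counts are uncertain. C4B had 9, 23 and 33 counts in D20 and 5, 2 and 1 in D20+ TGF-β.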

How the data were processed

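RNA of 12 flasks of WI-38 fibroblasts, 3 per condition, was sequenced with a directional kit, each library on 4 lanes. Reads had been trimmed (Trimmomatic) and aligned to hg19 (Rsubread) by the authors, whose deposited table holds unfiltered raw counts of 25702 genes by lane. The authors also deposited log2 cpm values per gene and lane, from voom in limma, for 9412 genes. The counting program, its annotation and its strand setting are not given in the sources used here, nor are the tool versions.

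The 4 lanes of a library were summed, giving totals of 8674488 to 18286197 counts, and 48 lane columns were used. Of 20434 genes with a count, 9490 with at least 10 cpm in at least 6 libraries were tested in R 4.3.3 with edgeR 4.0.16 (TMM factors, quasi-likelihood fit, 1 mean per condition over 12 libraries). A standard error is the absolute log2 fold change divided by the square root of F. P-values were Benjamini-Hochberg adjusted over all genes tested, with calls at an adjusted p under 0.01. The biological coefficient of variation common to all genes came to 9.35%, with 5.50 prior degrees of freedom. Log2 cpm for correlations used a prior count of 2. The code was tested on simulated data.

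The alternatives were DESeq2 1.42.0, limma-voom (limma 3.58.1) on libraries and on 48 lanes, limma on the deposited log2 values, other scalings and filters, fewer libraries, and a replicate block. The fits of C3 without single libraries were chosen after seeing the data. The member genes and all lists were chosen with earlier results of these data known. The members are all described, and of the other complement and A2M family genes those called in a TGF-β comparison were named, with the 5 genes most correlated with A2M. Genes named outside that rule were chosen after their values were seen. Positions are from GENCODE on GRCh37 and promoters from RefSeq on GRCh38.p14. Some genes of the lists are not reported here. C3 was not ranked for likeness because it was not tested.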

Additional observations from a re-analysis of the deposited data

Results flagged for a closer look

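A2M and SERPING1 were picked out because their TGF-β responses differed between day 20 and day 1. For A2M the log2 fold change with TGF-β was −0.75 at D1 and −4.63 at D20. The difference of −3.87991 is given with no p because A2M was taken as chosen for its level at D20. For SERPING1 the log2 fold change was −0.22 at D1 and −2.68 at D20, a difference of −2.45902 (SE 0.34, adjusted p = 0.000319 by edgeR). All 3 D20+ TGF-β flasks of SERPING1 lay below all 3 D20 flasks, and its flasks overlapped at day 1. Over the alternatives run, the difference for A2M stayed between −4.21 and −3.59 and that for SERPING1 between −2.75 and −2.17, with adjusted p from 9.92e-14 to 0.00186. The p-values of SERPING1 are for the same difference by which it was picked out, so they are no separate support for it. The summed proliferation genes also moved with these conditions, and their part was not tested.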

How the results depend on the processing

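Of 676 alternative values of log2 fold changes with a p, over the 7 members tested, 637 kept their direction and side of the threshold, 9 lost and 16 gained a call and 14 changed sign. The 87 alternatives of A2M with no p kept their direction. For C3 without a gene filter, 60 values leaving out a library kept their direction, with 1 call lost and 3 gained. Counts of calls among the 6 members moved with the 48 lanes as samples, to 2 in D1+ TGF-β vs D1, 5 in D20+ TGF-β vs D20 and 3 for the difference of responses, since lanes of a library are not independent. Leaving out each library gave 0 to 1 calls in D1+ TGF-β vs D1 (1 without D20+ TGF-β flask 3) and 1 to 3 in D20+ TGF-β vs D20 (1 without D20 flask 3). It gave 4 in D20 vs D1, 4 to 5 in D20+ TGF-β against D1+ TGF-β and 1 for the difference. The shares of all genes called with lanes as samples or with a library left out are not given here. Nothing about the members as a group is thus read from these counts. The sign changed for some values when a library was left out. In D1+ TGF-β vs D1, CD55 then ran from −0.067 to 0.041 (highest without D1 flask 2) and CD59 from −0.12 to 0.0087 (highest without D1 flask 2). In D20 vs D1, CD59 ran from −0.062 to 0.067 (highest without D1 flask 2). In D20+ TGF-β against D1+ TGF-β, CD59 ran from −0.0017 to 0.025 (lowest without D1+ TGF-β flask 1) and was −0.033 with no filter and −0.034 with filterByExpr. For the difference of responses, C1R ran from −0.073 to 0.32 (lowest without D1 flask 1), C1S from −0.29 to 0.078 (highest without D20+ TGF-β flask 3) and CD59 from −0.051 to 0.071 (lowest without D1 flask 2). The cause was not tested.

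Replicate numbers are shared between conditions, but deviations of same-numbered libraries correlated at −0.22 to 0.03 and showed no sign of a pairing. With 3 libraries per condition, this check cannot exclude one. With the replicate block, the counts of calls were 0 in D1+ TGF-β vs D1, 3 in D20+ TGF-β vs D20, 4 in D20 vs D1, 4 in D20+ TGF-β against D1+ TGF-β and 1 for the difference, as without it. C3 and CFD, at low counts, were compared only without the gene filter.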
